A study of Mus musculus with 2 samples.

Results

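The 10 genes described here encode parts of the antigen presentation machinery of MHC class I (B2m, H2-D1, H2-K1, H2-T23, Tap1, Tap2 and Tapbp) and MHC class II (H2-Aa, H2-Ab1 and Cd74). They were chosen by symbol for this function, and earlier results of these data were known when they were chosen. All 10 were found among the 32285 genes of the deposited tables.

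MHC class I molecules are a heavy chain paired with beta-2 microglobulin, and they display peptides made in the cytosol to CD8 T cells. The peptides enter the endoplasmic reticulum through the TAP transporter and are fitted into the heavy chain by tapasin and its partners. MHC class II molecules are an alpha and a beta chain that assemble on the invariant chain CD74 and display peptides from the endocytic route to CD4 T cells. In the healthy brain, class I genes are transcribed in many cells and at higher levels in microglia, whereas class II genes are low in resting microglia and high in dendritic cells and part of the border macrophages.

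The data came from EYFP+ cells sorted from the adult mouse dentate gyrus (DG) and sequenced on the 10x Genomics platform, with 1 WT and 1 inducible knockdown (iKD) library, each made from 5 pooled mice. The WT mice were NestinCreERT2;VEGFWT/WT;ROSA-STOP-EYFP and the iKD mice, named KO in the labels, were NestinCreERT2;VEGFfloxed;ROSA-STOP-EYFP, with both Vegfa alleles floxed. All mice were littermates aged 7 to 10 weeks at the start, all carried the Cre, which a Nestin promoter drives, and all received 180 mg/kg/d tamoxifen (TAM) for 5 d before the cells were taken 21 d later. The study compared the genotypes to find what VEGF made by neural stem and progenitor cells does in these cells.

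The WT library held 5543 cells and the iKD library 5261, in 12 deposited clusters. The 8 clusters named qNSC1, qNSC2, aNSC, NSPCs, IPC1, IPC2, eNB and NB held 10292 of these cells, with a median of 8132 unique molecular identifiers (UMIs) per cell in WT and 7114 in iKD. These names go against the markers of the cells. The median share of cells with a UMI was 99.3% to 100% over the 10 microglia markers in each of these clusters, against 0.200% to 0.685% over the 9 neural stem cell markers, so the names are used below only as names. The cluster named astrocytes had Ttr, a choroid plexus gene, at a level of 1019. Cells scored as female from Xist and Y-linked genes made up 57.6% of the WT and 70.9% of the iKD cells of the 8 clusters. Ttr had a UMI in 9.60% of these cells in WT and 99.8% in iKD, and 9 cell barcodes occurred in both libraries. Vegfa, the floxed gene, had a level of 0.0219 in WT, from 101 UMIs, and 0.0133 in iKD, from 52 UMIs.

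Here a level is the mean over cells of the counts per 10,000 UMIs, a share is the percent of cells with at least 1 UMI, and a ratio compares iKD with WT as log2(iKD + 0.01) minus log2(WT + 0.01). With 1 library per genotype there are no replicates and cells of a library are not replicates, so no difference was tested, and the 95% intervals cover counting error only. A gene counts as past the fold when its ratio exceeds 1.2-fold, and as measured between genotypes when its level reached 0.1 in the higher genotype.

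MHC class I genes are known for compact promoters, whose parts include a box for interferon regulatory factors, a kappa B element and a reversed CCAAT box. Other elements of MHC promoters, those of class II genes included, were not searched. RefSeq promoter sequences (GRCm38.p6) were at hand for 7 of the 10. The 250 bases before the transcription start are shown for B2m (chr2:122147437-122147686, plus strand), H2-K1 (chr17:34000348-34000597, minus strand) and H2-Aa (chr17:34287824-34288073, minus strand), as 1 example each of a light chain, a class I heavy chain and a class II chain. Capitals mark the motifs found.
B2m: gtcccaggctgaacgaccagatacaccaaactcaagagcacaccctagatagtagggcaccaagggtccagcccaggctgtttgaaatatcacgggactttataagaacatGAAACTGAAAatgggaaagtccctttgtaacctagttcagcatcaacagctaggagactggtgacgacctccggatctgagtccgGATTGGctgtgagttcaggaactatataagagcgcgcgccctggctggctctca
H2-K1: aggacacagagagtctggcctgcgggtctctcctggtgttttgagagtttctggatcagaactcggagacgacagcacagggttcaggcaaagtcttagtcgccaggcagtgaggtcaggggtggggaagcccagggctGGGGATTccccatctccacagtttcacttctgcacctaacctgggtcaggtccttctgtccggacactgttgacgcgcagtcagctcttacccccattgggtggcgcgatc
H2-Aa: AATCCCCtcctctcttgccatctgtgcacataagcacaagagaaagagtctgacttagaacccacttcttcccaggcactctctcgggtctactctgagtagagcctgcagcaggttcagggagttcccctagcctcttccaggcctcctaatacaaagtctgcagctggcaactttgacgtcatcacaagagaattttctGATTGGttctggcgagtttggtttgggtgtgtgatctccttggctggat
The 3 motifs were searched on both strands, and positions are counted back from the start. The letters GATTGG, a reversed CCAAT with a further base, occurred in 5 of the 7 windows (B2m, H2-D1, H2-T23, Tap1 and H2-Aa) and in 14.6% of 32851 promoter windows of the same length. They began at position -54 in B2m, -53 in H2-D1, -52 in H2-T23, -49 in H2-Aa and -222 in Tap1. The reversed CCAAT alone, ATTGG, was not searched and stands unmarked in the H2-K1 window, so a window without GATTGG may still hold it. The interferon element core, GAAA repeated after any 2 bases, occurred at position -139 in B2m and at -124 in H2-T23, and in 2.98% of all windows. The kappa B letters GGGGATT occurred at position -171 in H2-D1, -111 in H2-K1 and -250 in H2-Aa, and in 2.76% of all windows. The motifs do not overlap in these windows, and a match describes the letters only.

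B2m, the light chain shared by all classical class I molecules, had a UMI in 99.0% of the cells of the 8 clusters. Its level was 16.2 in WT and 13.8 in iKD in aNSC and 13.3 and 13.3 in qNSC1. In qNSC2 it was 15.7 in WT and lower in iKD, with a ratio of -0.27 (-0.35 to -0.19). It was 10.7 and 9.94 in NSPCs, 9.82 and 8.83 in IPC1, 9.12 and 8.31 in IPC2, 8.92 and 7.93 in eNB, and 8.44 and 8.04 in NB. The 3 clusters named aNSC, qNSC2 and qNSC1 were thus above the other 5 in both libraries, and the counting intervals of 2 of the 7 neighbouring pairs in this order, qNSC2 with qNSC1 and eNB with NB, overlapped.

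H2-D1 and H2-K1 encode the classical heavy chains, which hold the peptide. H2-D1 had its highest level in qNSC2, 7.36 in WT and 5.92 in iKD, followed by aNSC with 5.29 and 4.90 and qNSC1 with 4.26 and 4.56. It was 3.03 and 3.10 in NSPCs, 2.62 and 2.42 in IPC1, 2.26 and 2.13 in IPC2, 2.15 and 2.29 in eNB and 2.42 and 2.60 in NB. H2-D1 was the 1 class I gene of the 7 whose highest cluster was not aNSC. H2-K1 was highest in aNSC at 4.60 and 4.39, then in qNSC2 at 3.92 and 3.44 and qNSC1 at 3.71 and 3.61, and did not exceed 2.62 in the other 5 clusters in either library. The 2 heavy chain genes had a UMI in 76.2% (H2-D1) and 75.9% (H2-K1) of the cells. The class I heavy chain genes are close in sequence, and how reads matching more than 1 of them were counted is not stated.

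H2-T23 encodes the non-classical heavy chain Qa-1, which presents leader peptides of other class I chains to receptors of NK cells. Its level in aNSC was 4.27 in WT and 3.34 in iKD, whereas in the other 7 clusters it ran from 1.12 to 1.57 in WT and from 1.11 to 1.48 in iKD. The groups did not overlap: the lower aNSC library stood above each library of the other clusters.

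Tap1 and Tap2 form the TAP transporter. Tap1 showed the steepest step of the 7 class I genes, with 0.852 in WT and 0.883 in iKD in aNSC against 0.201 to 0.362 in the other 7 clusters. Tap2 was 0.943 and 1.02 in aNSC and 0.560 to 0.736 elsewhere. Tapbp encodes tapasin, which bridges TAP and the heavy chain, and was 1.45 and 1.44 in aNSC and 0.919 to 1.25 elsewhere. For these 3 genes the counting intervals of 6 of the 7 neighbouring pairs in the order of clusters overlapped, so that little order can be read below aNSC. Tap1 had a UMI in 17.1%, Tap2 in 39.4% and Tapbp in 55.9% of the cells.

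**Figure D1:**
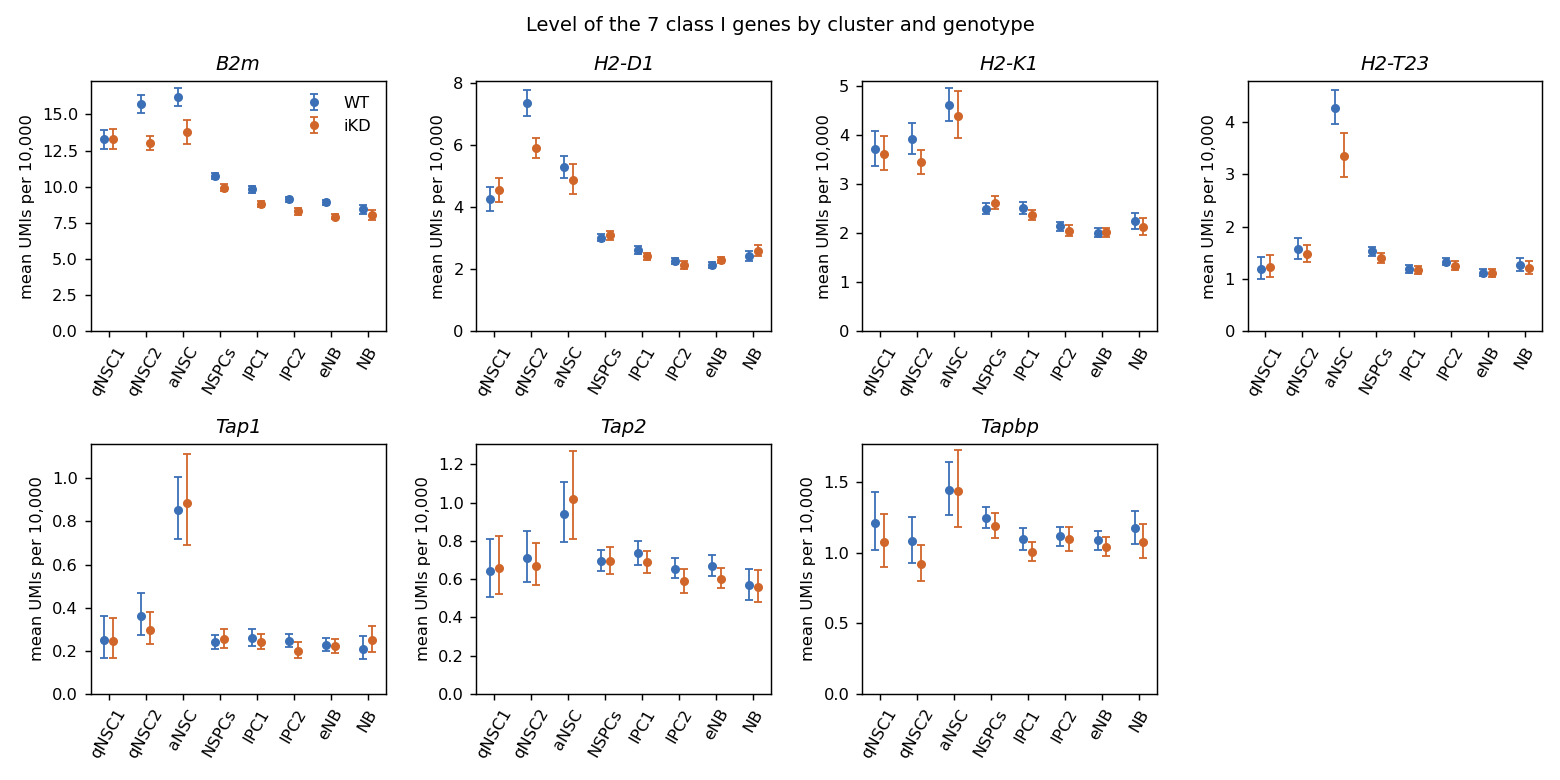
Levels (mean counts per 10,000 UMIs over cells) of the 7 class I genes in the 8 clusters, 1 panel per gene, with WT and iKD drawn as separate points and bars giving the 95% counting interval. The highest cluster of 6 of the 7 genes is aNSC in both genotypes, and that of H2-D1 is qNSC2.

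Set against the median of the other 7 clusters, aNSC held 3.52 times the Tap1 level, 3.18 times the H2-T23 level and 2.05 times the H2-D1 level. The values were 1.87 for H2-K1, 1.66 for B2m, 1.49 for Tap2 and 1.30 for Tapbp. Of all 9486 genes with enough counts for this comparison, 10.2% were highest in aNSC and 2.26% reached 2 times the median of the other clusters, against 6 and 3 of the 7 class I genes. The clusters were made from these cells with these genes among others, so this is a description of the clusters. The step was found in cells of either sex and either genotype: 6 of the 7 genes were highest in aNSC under each of the 9 alternatives tried.

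The choroid plexus-like cluster gives the share that cells of another kind show in the iKD library, at a median of 7902 UMIs per cell. There B2m had a UMI in 44.6% of 130 cells (95% exact binomial interval 35.9% to 53.6%), H2-D1 in 21.5%, H2-K1 in 23.8%, H2-T23 in 21.5%, Tap1 in 5.38%, Tap2 in 12.3% and Tapbp in 15.4%. Each was below the share in the 8 clusters. B2m had a level of 2.24 in these cells and 2.30 in the cluster named IN2.

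The other genes of the class I route were taken from lists of the pathway. Of the 14 further heavy chain genes matched, 6 were measured, and 3 of these were highest in aNSC: H2-T24 at 0.941, which is 4.46 times the median of the other clusters, H2-T22 at 0.373 and H2-M3 at 0.686. Of 13 genes for peptide generation and loading, 7 were highest in aNSC, against the same 10.2%. They included the proteasome activator subunits Psme1 (2.31 times the median of the other clusters) and Psme2 (2.20 times) and the immunoproteasome subunits Psmb9 (2.18 times) and Psmb8 (1.58 times). The chaperones Pdia3 and Calr, which help load class I molecules, had the highest levels of that list and were highest in qNSC1, at 8.30 and 7.93.

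Regulators and response genes of the interferon route had larger steps. Of the 11 regulators measured, 4 were highest in aNSC, against 10.2% of the 9486 genes. Nlrc5, the transactivator of class I genes, had 0.782 in aNSC, 17.9 times that median, although its level over the 8 clusters, 0.0656, was too low for the comparison of genotypes. Ciita, the transactivator of class II genes, had a level of 0.00350 over the 8 clusters and 0.0223 in aNSC. Of the 17 interferon receptor and response genes measured, 12 were highest in aNSC, against 10.2% of the 9486 genes. Among these 12 were Ifit2 (186 times the median of the other clusters), Ifit3 (148 times), Ifitm3 (112 times) and Isg15 (60.8 times). The genes measured were set by the level over the 8 clusters, aNSC included. Without the aNSC cells 11 of the 24 listed reached that level. Some of the 17 were thus measured only through aNSC, and the count describes this set only. The receptor chain Ifngr1 was highest in NSPCs and Ifnar2 in NB.

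**Figure D2:**
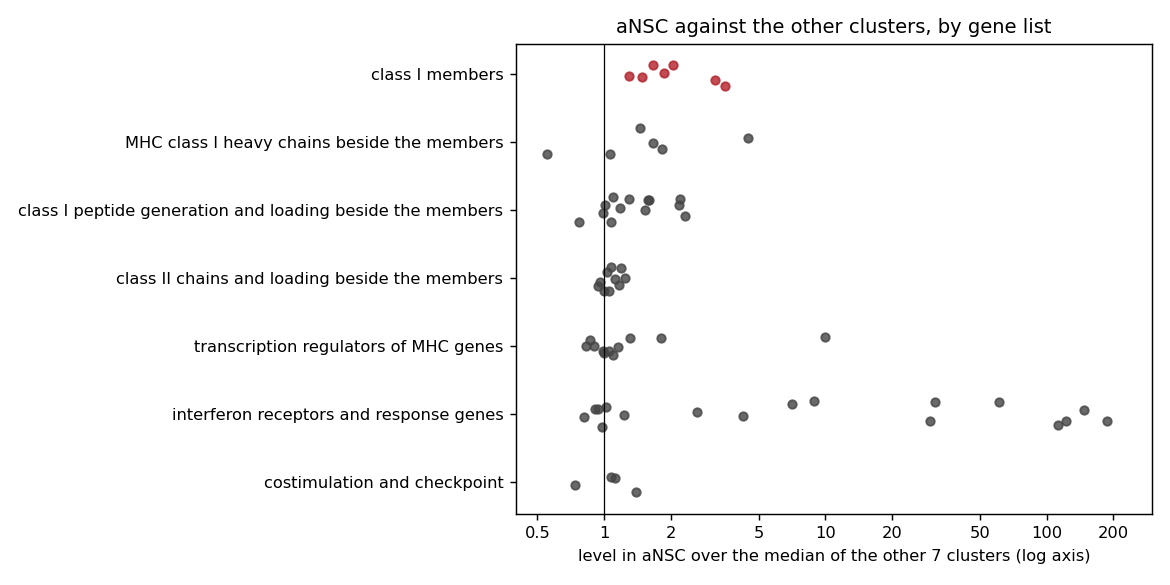
Level in aNSC divided by the median level of the other 7 clusters (log axis) for the 7 class I genes in red and for the measured genes of 6 lists in grey, 1 point per gene. The class I genes lie between 1.30 and 3.52, and the interferon list reaches 186.

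The summed level of 18 interferon response genes had a mean of 44.2 in the WT and 38.0 in the iKD cells of aNSC and of 1.81 to 3.62 in the cells of either genotype in the other clusters. Within aNSC, the 137 cells with a Tap1 UMI had levels of 16.2 for B2m and 4.23 for H2-T23, and the 168 cells without had 14.7 and 3.70, with median depths of 8413 and 7878.5 UMIs.

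Class II genes had a different distribution. H2-Aa, the alpha chain of I-A, had a UMI in 39 of 10804 cells, H2-Ab1, its beta chain, in 436 and Cd74, the invariant chain, in 824. All 3 genes were found together in 16 cells, 7 WT (0.126% of the library) and 9 iKD (0.171%), which is 0.148% of all cells (0.0847% to 0.240%). These 16 cells held 185 of the 211 H2-Aa UMIs (87.7%), 175 of the 668 H2-Ab1 UMIs (26.2%) and 565 of the 1857 Cd74 UMIs (30.4%).

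Within these, 3 cells held most, with 384, 228 and 119 class II UMIs, against 40 in the next. The first and second were WT cells of qNSC2 and the third an iKD cell of aNSC. They held 163 of the 211 H2-Aa UMIs and 162 of the 211 UMIs of H2-Eb1, the beta chain of I-E, so that H2-Aa and H2-Eb1 were nearly absent from the other cells. These 3 cells also had the class I genes high: B2m at 27.6, 32.6 and 34.6 against a mean of 9.64 in the other cells of the 8 clusters, and H2-D1 at 25.6, 30.5 and 24.7 against 2.81.

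The same 3 cells differed from the rest in microglia genes. Their summed level of the 10 microglia markers was 136, 178 and 230, and 5, 10 and 102 of the 10276 cells outside the 16 had a lower one. Tmem119 and Sall1, both microglia genes, had no UMI in any of the 3, and P2ry12 had none in the first and second and a level of 4.94 in the third. The receptor gene Csf1r was low in all 3, at 7.88, 6.53 and 7.41 against a mean of 26.2 in the other cells. Other microglia genes were not: the complement gene C1qa was at 51.2, 82.7 and 101, within the range of 37.9 to 119 that holds the middle 95% of the other cells. Cx3cr1, the fractalkine receptor, was at 7.88 and 15.2 in the first and second and at 27.2 in the third, which lies in the range of 18.9 to 69.5 of the other cells. Lyz2, a lysozyme gene of myeloid cells, was at 96.5, 17.4 and 151 against 0.988, and Mrc1, a marker of border macrophages, at 1.97, 23.9 and 7.41 against 0.0621. The 8 border macrophage markers together had 1, 12 and 10 UMIs in the 3 cells, of which Mrc1 gave 1, 11 and 3. Most of those in the third cell were thus of other markers of the list. Their summed level in the other cells had a mean of 0.0671. Ms4a7, from the same list, had no UMI in the 3 cells. Ccr2, a chemokine receptor of monocytes, was at 13.8 and 6.53 in the first and second, against 0.0234 in the other cells, and had no UMI in the third. Flt3, Zbtb46 and Itgax, which mark dendritic cells, had no UMI in the 3 cells. All 8 dendritic cell markers together had 1 UMI in the first, 1 in the second and 0 in the third. The marker lists do not give these cells 1 name, and none is given. A count of 0 in a cell of 4051 to 5077 UMIs allows up to 3 counts. Of the other 13 cells, an iKD cell of aNSC with 13 class II UMIs had the lowest summed microglia level, 29.5, and 2036 UMIs in all.

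**Figure D3:**
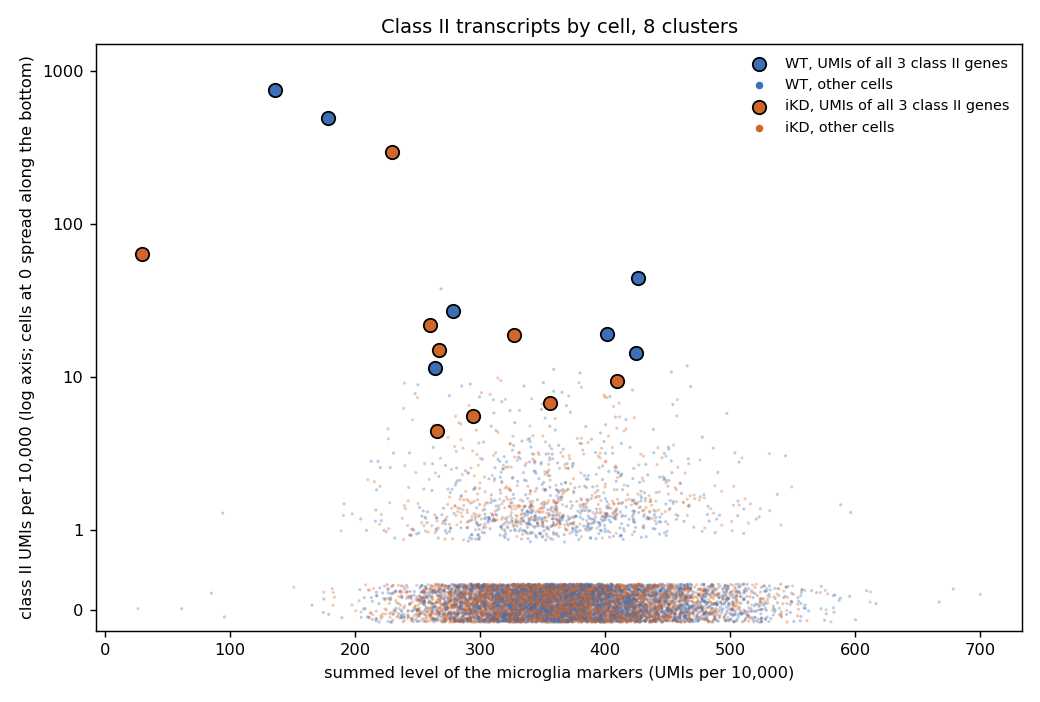
Class II UMIs (Cd74, H2-Aa and H2-Ab1 summed) per 10,000 UMIs (log axis) against the summed level of the 10 microglia markers, 1 point per cell of the 8 clusters, with WT in blue and iKD in orange. Large points are the 16 cells with all 3 genes, small points are the other cells, and cells without a class II UMI are spread in the band marked 0. The 3 highest cells, at 756, 496 and 294, lie at microglia levels of 136, 178 and 230.

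Detection of the class II partners overlapped unevenly. Cd74 had a UMI in 59.0% of the 39 cells with H2-Aa (42.1% to 74.4%) and in 7.44% of the cells without it. It had a UMI in 20.4% of the 436 cells with H2-Ab1 (16.7% to 24.5%) and in 7.09% of the cells without. H2-Aa was found in 3.90% of the cells with H2-Ab1 (2.29% to 6.17%) and in 0.212% of those without.

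Without the 16 cells, Cd74 kept a gradient over the clusters. It had a UMI in 42.7% of the WT and 34.6% of the iKD cells of qNSC1, in 22.9% and 19.3% of those of qNSC2 and in 13.7% and 6.60% of those of aNSC. In IPC1 the shares were 9.34% and 5.54%, in NSPCs 6.64% and 5.62%, in eNB 6.23% and 6.40%, in IPC2 4.62% and 4.17% and in NB 4.88% and 3.08%. With each cell thinned to 4500 UMIs, the share was 28.2% in qNSC1, 13.8% in qNSC2 and 7.72% in aNSC over both genotypes. In the choroid plexus-like cluster Cd74 had a UMI in 3.08% of the 130 iKD cells (0.845% to 7.69%). The iKD shares of qNSC1 and qNSC2 lie above this interval. Those of the other clusters lie within it, and so wide an interval cannot tell whether they are background. The microglia markers had a median share of 41.4% in the choroid plexus-like cluster, so its own Cd74 share need not be background alone. The WT library held 4 choroid plexus-like cells, too few for a background of its own, so its shares can be set only beside that of the other library.

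H2-Ab1 had no such gradient outside the 16 cells. Its share was 3.71% in WT and 4.34% in iKD over the 8 clusters and between 3.24% and 7.85% in the single clusters, both genotypes together, and 1.54% (0.187% to 5.45%) in the choroid plexus-like cells of iKD. Of the 8 clusters, qNSC2 at 7.85% (5.64% to 10.6%) and qNSC1 at 6.97% (4.31% to 10.6%) exceeded the upper bound of the latter, and only the interval of qNSC2 lay wholly above it. At 4500 UMIs their shares were 4.34% and 3.57%. H2-Aa outside the 16 cells had a UMI in 0.224% of the cells and in 0 of the 130 choroid plexus-like cells, which allows a share of up to 2.31%. The genes that handle class II peptides were not scarce: Ctss and Lgmn, lysosomal proteases that trim the invariant chain and antigens, had levels of 38.3 and 28.3. None of the 10 further class II genes measured was highest in aNSC, against 10.2% of the 9486 genes compared by cluster.

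**Figure D4:**
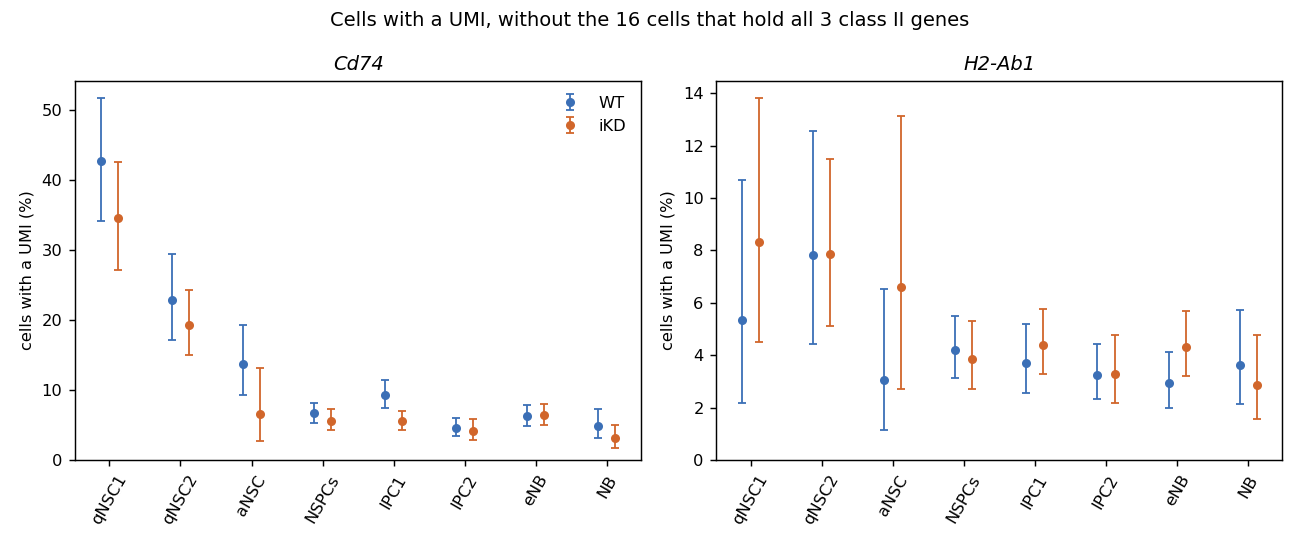
Percent of cells with at least 1 UMI of Cd74 (left) and H2-Ab1 (right) by cluster and genotype, without the 16 cells in which all 3 class II genes were found, with 95% exact binomial intervals. Cd74 is at 42.7% of WT qNSC1 cells and 4.88% of WT NB cells, and H2-Ab1 lies between 2.87% and 8.33%.

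Between the genotypes, 9 of the 10 genes reached the level of 0.1 and were measured, and all 9 were lower in iKD over the 8 clusters, against 45.1% of the 8835 genes measured. H2-Aa, below that level at 0.0552 and 0.0252, was also lower. The differences of the class I genes were small. B2m was at 10.1 in WT and 9.18 in iKD (ratio -0.14, counting interval -0.16 to -0.12), H2-T23 at 1.41 and 1.28 (-0.14, -0.20 to -0.08) and Tapbp at 1.16 and 1.08 (-0.10, -0.16 to -0.04). Tap2, at 0.685 and 0.648, had a ratio of -0.08 with an interval that ended at -0.00033, and Tap1, at 0.266 and 0.251, had -0.08 with an interval of -0.21 to 0.05. H2-K1 had -0.03 (-0.07 to 0.01) and H2-D1 -0.01 (-0.05 to 0.03), so neither differed beyond counting error. The median over the class I genes was -0.08, and over all genes measured 0.01.

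Of the 9 genes measured, 6 had a counting interval below 0, against 12.7% of all genes measured, and these were B2m, H2-T23, Tap2, Tapbp, H2-Ab1 and Cd74. Without the 16 cells with all 3 class II genes, 3 of the 10 genes had such an interval, B2m, H2-T23 and Tapbp. Cd74 was past the fold and lower in iKD, against 1.64% of all genes, as was H2-Aa outside the measured set. None was past the fold and higher, against 1.32%. H2-Ab1 reached the level of 0.1 only through WT and not without the 16 cells.

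The class II ratios over the 8 clusters changed with few cells. Cd74 was at 0.322 in WT and 0.196 in iKD (-0.69, -0.83 to -0.55), H2-Aa had -0.89 (-1.35 to -0.44) and H2-Ab1 was at 0.105 and 0.0862 (-0.25, -0.48 to -0.03). Without the 16 cells the ratio of Cd74 was -0.16 (-0.32 to 0.01), that of H2-Aa was 0.09 and that of H2-Ab1 was 0.28 (0.02 to 0.54), and no gene was past the fold and lower. In qNSC2 Cd74 had 443 UMIs in 195 WT cells and 125 in 307 iKD cells (ratio -2.89), H2-Ab1 had a ratio of -3.14 and H2-Aa one of -5.34. In aNSC the direction was the opposite, with ratios of 2.20 for Cd74 and 2.87 for H2-Ab1, and with 0 UMIs of H2-Aa in WT and 39 in iKD, 34 of them in 1 cell. The 3 cells with the most class II UMIs lie in these clusters. In the clusters that hold none of the 3, the direction of Cd74 was mixed. It was lower in iKD in qNSC1 (-0.60, -0.92 to -0.29), IPC1 (-0.72, -1.12 to -0.32) and NB (-1.36, -2.28 to -0.52). The intervals spanned 0 in NSPCs (-0.22, -0.71 to 0.24), eNB (0.14, -0.30 to 0.59) and IPC2 (0.09, -0.48 to 0.65, below the level of 0.1). Without the 16 cells the Cd74 levels were 1.23 and 1.03 in qNSC1, 0.175 and 0.0993 in IPC1 and 0.147 and 0.0552 in NB.

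By cluster, the class I genes were lower in iKD in 43 of 56 pairs of a gene and a cluster, against 47.9% of all 71637 such pairs. The interval was below 0 in 10 of the 56, against 6.25% of all pairs, and above 0 in 1, that of H2-D1 in eNB. Tapbp was lower in all 8 clusters, with no interval below 0, and B2m in 7 of 8, with 6 intervals below 0. H2-D1 was lower in 4 of the 8. Its ratio was -0.31 (-0.43 to -0.20) in qNSC2 and 0.09 (0.0037 to 0.18) in eNB.

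**Figure D5:**
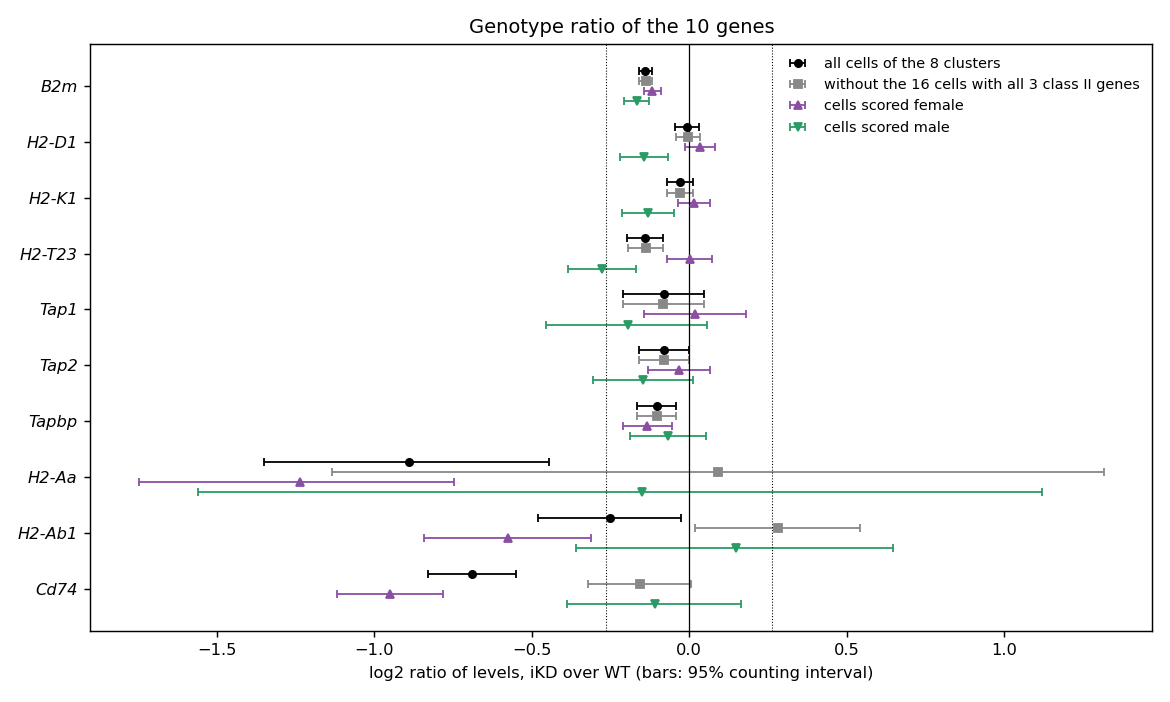
Ratio of the iKD over the WT level (log2) of the 10 genes over the 8 clusters, in all cells, without the 16 cells with all 3 class II genes, and in cells scored as female or male, with 95% counting intervals. Dotted lines mark 1.2-fold, which Cd74 and H2-Aa pass in all cells and not without the 16 cells.

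The sexes differed in these ratios. In cells scored as female 3 of the 7 class I genes were lower in iKD, against 45.7% of all genes measured in them, and in cells scored as male 7 of 7, against 45.6%. H2-T23 had 1.28 in WT and 1.28 in iKD in female cells (ratio 0.00, -0.07 to 0.07), and 1.58 and 1.30 in male cells (-0.28, -0.38 to -0.17). B2m was lower in iKD in both, at -0.12 (-0.14 to -0.09) in female and -0.17 (-0.21 to -0.13) in male cells. The mix of clusters within each sex differed between the genotypes as well. The cluster aNSC, where H2-T23 was highest, gave 139 of the 1873 WT and 6 of the 1090 iKD male cells. It gave 38 of the 3044 WT and 96 of the 3549 iKD female cells. The difference between the sexes, the part of the cluster mix in it and the part of the sex mix in the pooled ratios were not tested.

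The cluster aNSC, where most class I genes were highest, differed in its make-up. It held 3.73% of the WT and 2.16% of the iKD cells of the 8 clusters, and 19.3% of its WT cells and 88.9% of its iKD cells were scored as female. Among its female cells, 38 in WT and 96 in iKD, B2m was at 16.8 and 13.4, H2-D1 at 7.57 and 4.66, H2-K1 at 5.80 and 4.08, H2-T23 at 3.95 and 3.27 and Tap1 at 1.07 and 0.845. Tap2, at 0.860 and 0.965, and Tapbp, at 0.996 and 1.37, were higher in iKD in these cells. Its male cells, 139 in WT and 6 in iKD, had higher iKD levels of B2m (16.2 and 17.1), H2-D1 (4.55 and 7.10), H2-K1 (4.17 and 6.64) and Tap1 (0.799 and 1.06) and lower ones of the other 3, on these few cells. Without aNSC, B2m had a ratio of -0.12 (-0.14 to -0.10), H2-T23 of -0.07 (-0.13 to -0.02) and H2-D1 of 0.02, and 6 of the 7 class I genes were lower in iKD.

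Among the other genes of the pathway the genotypes differed little outside the interferon list. None of the 13 genes for peptide generation and loading and none of the 10 further class II genes measured was past the fold. Of the further heavy chains, Mr1, which presents vitamin metabolites, was higher in iKD (0.103 and 0.129, ratio 0.29, 0.10 to 0.48). Of the 4 costimulation genes measured none was past the fold, and Cd86 was at 3.53 and 3.34. H2-Eb1, below the level needed, had a ratio of -1.19 and rested on the same 3 cells as H2-Aa.

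Of the 17 interferon genes measured, 7 were past the fold and lower in iKD, against 1.64% of all genes. None was past it and higher, against 1.32%. Without aNSC only 11 of the 24 listed were measured, so the set of 17 depends on that cluster. The largest ratios were those of Ifit3 (-0.89), Ifitm3 (-0.76), Ifit2 (-0.71) and Isg15 (-0.69). Within aNSC, 8 of the 24 interferon genes were past the fold and lower and 4 higher, where 21.1% of all genes were lower by that fold, on few cells. In the 7 clusters without aNSC 0 of the 11 interferon genes measured were past the fold, against 1.52% of all genes that were lower by it. The iKD library also held the smaller share of aNSC cells, as given above.

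By position (GENCODE release M21, GRCm38), 8 of the 10 genes lie on the chromosome of the floxed gene, 9.99 to 12.1 Mb from the start of Vegfa (chr17:46016993-46032369). From proximal to distal, these are Tapbp (chr17:33915899-33929292), H2-K1 (chr17:33996017-34000347), Tap1 (chr17:34187553-34197225), Tap2 (chr17:34203527-34216321), H2-Ab1 (chr17:34257689-34269419), H2-Aa (chr17:34282744-34287823), H2-D1 (chr17:35262730-35267499) and H2-T23 (chr17:36029773-36032855). B2m (chr2:122147686-122153083) and Cd74 (chr18:60803848-60812652) lie elsewhere. Other genes within 15 Mb of Vegfa were past the fold in either direction in 13 of 201 cases (6.47%) and those within 5 Mb in 10 of 51 (19.6%), against 2.97% of all genes. The part of the linked segment in the values of the MHC genes was not tested. Tap1 overlaps Psmb9 on the other strand, B2m overlaps Patl2, and Tapbp overlaps Zbtb22 on its own strand, and whether counting used the strand is not stated.

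The genes whose levels followed each of the 10 most closely were found over 19 groups of a cluster and a genotype with at least 50 cells. The groups share libraries and depth, and the correlations are descriptions. B2m was closest to Ctss (Pearson r 0.97), Psmb8 and Coro1a, H2-D1 to Ifi30 (0.96), B2m and Lyz2, and H2-K1 to Ctsc (0.96), H2-M3 and H2-D1. H2-T23 was closest to Ly6e (0.97), Capza2 and Igtp, and Tap1 to Sp110 (0.94), Sdc3 and Ifi35. Tap2 was closest to Tor1aip2 (0.94), Tapbp and Shisa5, and Tapbp to Unc93b1 (0.97), Tor1b and Plekho1. H2-Aa was closest to H2-Eb1 (0.89), H2-Ab1 and Cd74, H2-Ab1 to H2-Aa (0.89), Cd74 and Emp3, and Cd74 to H2-Ab1 (0.85), H2-Aa and Plekho2.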

How the data were processed

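Single-cell RNA sequencing of EYFP+ cells was analysed from 1 WT and 1 iKD library of 5 pooled mice each. The authors' methods state that Cell Ranger demultiplexed, aligned and deduplicated the reads and that Seurat filtered, integrated and clustered the cells. The submitters' processing notes name Cell Ranger 7.0.1 and Seurat 4.1.1 and the build GRCh38, which is human. The mouse build used is not given in the sources used here. The authors deposited 1 table per cluster with natural log values, each a count scaled to 10,000 UMIs in its cell, plus 1, on the log scale.

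UMI counts were recovered from these natural log values, since the values of a cell are whole multiples of its smallest after the log is undone. Of 32261786 values above 0, 100% came out whole within 0.01. All cells were used and 0 columns were left out. Doublets were not called, since the methods describe limits on gene number against multiplets and damaged cells. The deposited tables still hold cells below the lower limit, so the stated filter does not describe all of them. The median number of genes was 1521 in IN2 and 1138 in the cluster named undefined, both below it. Of the 3 cells with the most class II UMIs, those with 384 and 119 had 1895 and 1811 genes, also below it. The cell with 228 had 2067 genes, which is above it. Cells positive for Xist together with a gene of the Y chromosome made up 1.86% of the WT and 0.931% of the iKD library. The libraries held 44142118 (WT) and 37451839 (iKD) UMIs.

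Levels are means over cells of counts per 10,000 UMIs. Ratios use a pseudocount of 0.01 and genes whose level reached 0.1 in either genotype, with exact binomial intervals of the summed UMIs, and shares have exact binomial intervals. Intervals were set at 95%, cover counting error only, and a count of 0 was taken to allow 3. For thinning, each cell was drawn down to 4500 UMIs, which kept 10184 cells. Genes named are the 10 members, from each pathway list the 2 genes with the highest levels and up to 4 past 1.2-fold, the 3 closest genes by correlation, and the markers, Vegfa and Ttr. The genes named for their step in aNSC, Mrc1, Lyz2 and Ciita with H2-Eb1, and the settings without aNSC or without the 3 cells, were chosen after the values were seen. The members and lists were chosen with earlier results of these data known. The steps were tested on simulated data. Python 3.11.15, numpy 2.4.6, scipy 1.17.1, pandas 2.3.3 and matplotlib 3.10.9 were used.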

Additional observations from a re-analysis of the deposited data

Results flagged for a closer look

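The ratio of H2-D1 was lower in iKD in qNSC2 and higher in eNB, and the ratios differ by 0.41 on the log2 scale. The ratios of H2-Ab1 and Cd74 were lower in iKD in qNSC2 and higher in aNSC, and differ by 6.01 and 5.09. In each case the counting intervals of both ratios exclude 0 on opposite sides. The differences were not tested, because each genotype has 1 library. For H2-Ab1 and Cd74, 2 of the 3 cells with the most class II UMIs are WT cells of qNSC2 and the third is an iKD cell of aNSC. Without the 16 cells with all 3 class II genes, Cd74 had 69 UMIs in WT and 103 in iKD in qNSC2, and 71 and 16 in aNSC.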

How the results depend on the processing

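No paired analysis was possible because each genotype has 1 library and no test was made. Over 16 settings, the reported one included, the ratios of B2m (-0.17 to -0.12), Tapbp (-0.14 to -0.05), Tap2 (-0.15 to -0.03) and Cd74 (-1.01 to -0.11) stayed below 0. The ratio was below 0 in 15 of the 16 for H2-K1, H2-T23 and Tap1, in 14 for H2-D1, in 13 for H2-Aa and in 12 for H2-Ab1. The ratio of H2-Aa was 0.087 as the mean of the 8 ratios within clusters, 0.091 without the 16 cells and 0.30 without the 3 cells with over 100 class II UMIs. With female cells alone, 6 of the 10 and 3 of the 7 class I genes had lower levels in iKD. The number past the fold and lower, 2 in all cells, was 0 with a pseudocount of 1, without the 16 cells or without the 3 cells, and 1 in male cells or as the mean of ratios within clusters. The number past the fold and higher was 1 without the 16 cells and 2 without the 3 cells. The share of iKD cells with all 3 class II genes was 0.0570% when 2 UMIs of each were asked for, 0.0612% after thinning and 0.358% in male cells. Cells with Cd74 and either chain made up 0.920% of the WT and 0.855% of the iKD library. Genes within 5 Mb of Vegfa were past the fold in 19.6% of cases, and those within 15 Mb in 10.8% in female cells, against 4.42% of all genes in them, and in 9.50% in male cells, against 11.7%. For single genes, 115 ratios under the alternatives stayed within the counting interval of the reported ratio and 32 moved out of it. A further 3, of a gene past the fold, changed sign. Those that did not stay were 9 of Cd74, 8 of H2-Ab1, 7 of H2-Aa, 5 of H2-T23 and 2 each of B2m, H2-D1 and H2-K1. In each of the 9 alternatives in which the order of clusters was recomputed, 6 of the 7 class I genes were highest in aNSC. Tap1 and the class II genes are limited by depth.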

Other observations

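Over the 16 groups of the 8 clusters alone, a set of groups chosen after the data were seen, B2m was closest to H2-K1 (Pearson r 0.97), H2-D1 and Cd52, and H2-K1 to B2m, Ifi207 and H2-D1. Tap1 was closest to Sdc3 (0.98), Sp100 and Phf11b, and H2-T23 to Ly6e (0.98), Phf11b and Rtp4. Cd74 was closest to Plin2 (0.92), Cd52 and Lyz2, which are not the genes closest to it over all groups. Cd83, a surface protein that stabilises class II molecules, had a level of 5.02 in qNSC1 and of 0.737 as the median of the clusters other than aNSC, and qNSC1 also had the largest share of cells with Cd74.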
